A study of Rattus norvegicus with 4 samples.

Results

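The nuclear repressors and membrane inhibitors of transforming growth factor beta (TGF-beta) signalling were examined in rat hippocampal neural progenitor cells, together with the ligand, receptor and SMAD genes they act on. Members were the probe sets annotated to 10 listed symbols, namely Tgif1, Tgif2, Ski, Skil, Pmepa1, Smad2, Smad3, Smad4, Tgfbr1 and Tgfb2. They were chosen by the Tgif1 values, which differed from the solvent control in opposite directions with the compound and with the positive control, so all Tgif1 differences below, from DMSO and between treatments, come from the values that chose the members and are given as a description. Probe sets were found for 9 of the 10 symbols, 13 probe sets in all, among 14217 named genes. Ski had no probe set with its symbol in the annotation used and was not analysed here. The probe set with the highest mean stands for a gene, and all 9 genes exceeded a floor of log2 = 5 on all 4 arrays with that probe set. Values under the floor were set to it.

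Progenitors of the Fisher 344 rat strain were plated in medium with N2 supplement and were treated for 4 days, per the labels' protocol, with KHS101 at 5 uM or 1.7 uM, or with the positive control, 1 uM retinoic acid plus forskolin (RA+F), or with the solvent DMSO as negative control. KHS101 is a small molecule investigated as an inducer of neuronal differentiation, retinoic acid is a ligand of nuclear receptors, and forskolin activates adenylyl cyclase and so raises cAMP. The forskolin concentration and the number of cultures or animals behind each array are not given in the sources used here. Each group was 1 Affymetrix array, so no difference below has a replicate check, no test could be run, and this single array a group sets the precision of all values. In bulk RNA, fewer cells of a type and less RNA per cell cannot be told apart.

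On the 4 arrays between 8389 and 8471 genes lay above the floor. Of the progenitor markers, Nes, Sox2, Vim, Fabp7 and Hes1 were above it on every array and Pax6 was under it on every array. The neuronal markers Dcx, Rbfox3, Neurod1, Stmn2 and Snap25 and the astrocyte markers Gfap, Aqp4, Slc1a2 and Aldh1l1 were under the floor on all 4 arrays, as were all 6 microglia and macrophage markers. The other neuronal and astrocyte markers of those lists were above it on every array. These were Tubb3 and Map2, of 7 neuronal markers, and S100b and Slc1a3, of 6 astrocyte markers. The oligodendrocyte lineage markers Olig1, Olig2, Pdgfra, Mbp and Sox10 were above it on every array, while Cspg4 was under it on every array.

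TGF-beta and the related activins bind paired serine and threonine kinase receptors, which phosphorylate SMAD2 and SMAD3. These join SMAD4, enter the nucleus and switch target genes. TGIF1 and TGIF2 are homeodomain proteins of the TALE class that bind SMAD2 or SMAD3 on DNA and recruit histone deacetylases, and TGIF1 is also known as a repressor of retinoid-dependent transcription. SKI and SnoN, the product of Skil, hold SMAD complexes in a repressed state. PMEPA1 is a membrane protein that binds SMAD2 and SMAD3 and keeps them from the receptor, and its gene is a known target of TGF-beta, which makes it a feedback inhibitor. In neural progenitors TGF-beta ligands are known, among other effects, for slowing division.

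**Figure D1:**
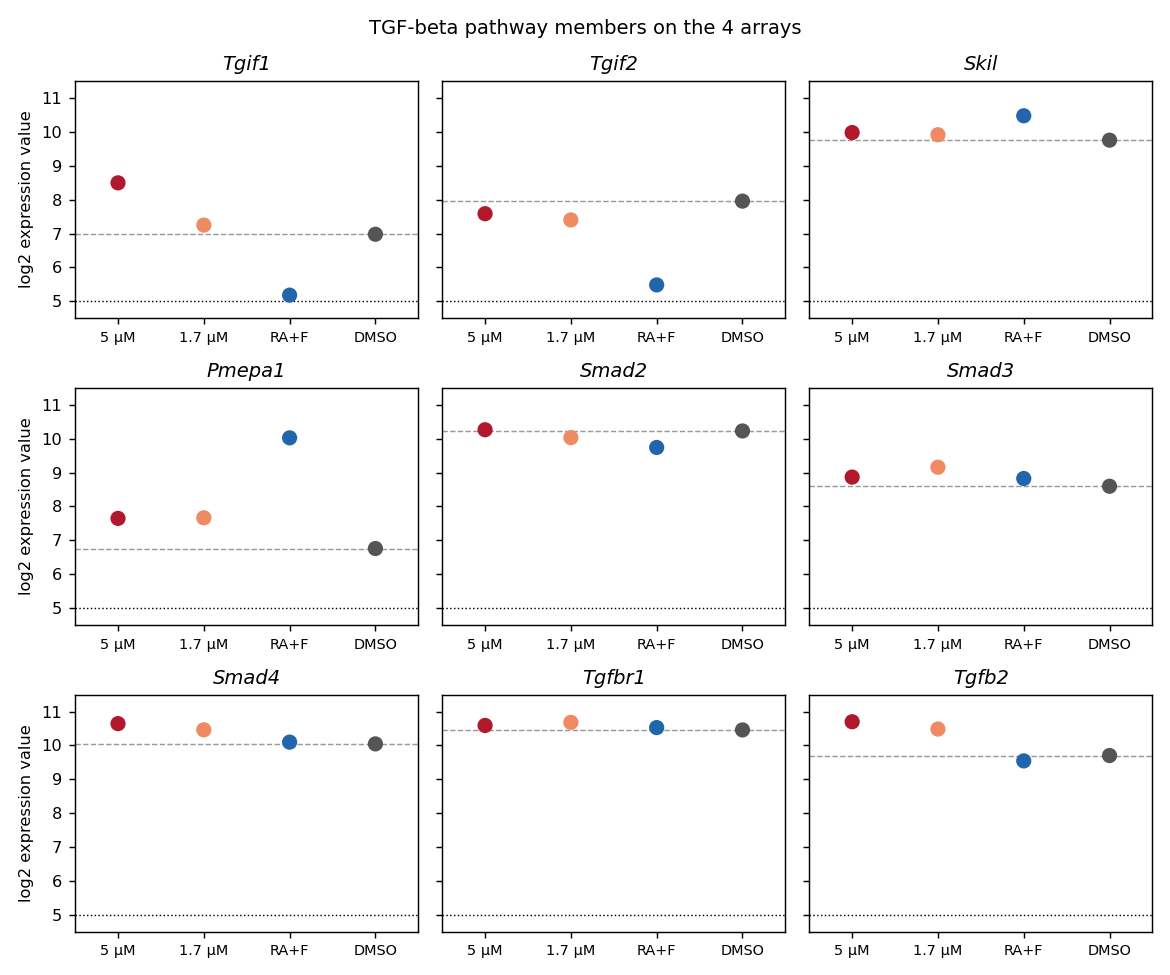
Log2 expression value (vertical axis) of the 9 members on the arrays of KHS101 at 5 uM, KHS101 at 1.7 uM, RA+F and DMSO, 1 point for each array. The dashed line marks the DMSO value and the dotted line the floor of log2 = 5. Tgif1 and Tgif2 were lowest and Pmepa1 highest with RA+F, at 5.18, 5.48 and 10.02.

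The 3 treatments were each compared with DMSO, and the differences share that 1 DMSO array. Genes at least 2-fold above or below were called higher or lower. With KHS101 at 5 uM, 1 of the 9 members was called (Tgif1, higher), against 14.3% of 8543 measured genes called in either direction. At 1.7 uM it was 0 of 9, against 8.63% of 8533 genes. With RA+F, 1 member was higher (Pmepa1) and 2 were lower (Tgif1 and Tgif2), against 7.49% of 8535 genes called, 4.34% higher and 3.15% lower. Tgif1 enters these counts through the choice of members. The median log2 difference of the 9 members from DMSO was 0.27 with KHS101 at 5 uM, 0.27 at 1.7 uM and 0.05 with RA+F, against medians of 0.00, -0.01 and -0.03 over all measured genes.

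Tgif1, the TGIF repressor that also acts on retinoid targets, had log2 values of 8.50 with KHS101 at 5 uM, 7.25 at 1.7 uM, 5.18 with RA+F and 6.98 in DMSO. It was thus highest at the higher KHS101 concentration and lowest with RA+F, where it lay just above the floor. The differences from DMSO were 1.52 (2.86-fold higher) at 5 uM, 0.27 (1.21-fold, not called) at 1.7 uM and -1.80 (3.47-fold lower) with RA+F. That last difference ranked 14 from the lowest of 8535 measured genes. With the floor at log2 = 6 it was -0.98 and no longer called.

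The KHS101 concentrations also separated Tgif1. At 5 uM it was 2.37-fold higher than at 1.7 uM (log2 difference 1.25). It was the 1 member called between these arrays, where 2.54% of all genes were called and 0.812% were higher. The other 8 members differed between the concentrations by log2 differences of 0.29 or less in size. The median size over all genes was 0.19.

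Tgif2, its closest relative, had log2 values of 7.58 at 5 uM, 7.40 at 1.7 uM, 5.48 with RA+F and 7.96 in DMSO. The 3 arrays other than RA+F lay within a narrow span. Tgif2 was 5.55-fold lower with RA+F than in DMSO (log2 difference -2.47), rank 2 from the lowest of 8535 genes. With KHS101 its differences from DMSO were -0.37 and -0.55 at 5 and 1.7 uM, opposite in sign to those of Tgif1 and not called. Both TGIF genes were therefore lower with RA+F, while with KHS101 at 5 uM Tgif1 alone was called.

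The levels of oligodendrocyte lineage, neuronal, astrocyte and progenitor markers and of RNA quality controls also varied over the arrays. The log2 values of 7 oligodendrocyte markers, each raised to the floor where below it, summed to 66.1 with KHS101 at 5 uM, 68.9 at 1.7 uM, 74.9 with RA+F and 72.9 in DMSO. This order is the reverse of that of Tgif1. Of the 7, Cspg4 was under the floor on all 4 arrays and Mog on all but the RA+F array. The log2 values of 7 neuronal markers summed to 47.1 at 5 uM, 47.3 at 1.7 uM, 47.8 with RA+F and 46.3 in DMSO, and those of 6 astrocyte markers to 42.3 at 5 uM, 42.6 at 1.7 uM, 44.0 with RA+F and 42.9 in DMSO. Tubb3 was higher with RA+F than in DMSO by a log2 difference of 1.14 and S100b by 1.05, both past 2-fold, and neither was called with KHS101. Mbp differed from DMSO by -2.11 at 5 uM, -1.54 at 1.7 uM and 1.29 with RA+F. At 5 uM Olig1 (-1.24), Olig2 (-1.58) and Pdgfra (-1.07) were also called lower, and Sox10 was not called. Of the progenitor markers, Fabp7 differed by -2.11 at 5 uM and -1.21 at 1.7 uM, Hes1 by 1.34 and 1.53, and Vim by -1.11 with RA+F. Nes and Sox2 were not called against DMSO. Between its 3′ and 5′ ends, the beta-actin control differed in log2 by 1.54 at 5 uM, 1.40 at 1.7 uM, 1.37 with RA+F and 1.26 in DMSO. The hexokinase control differed by 0.96 at 5 uM, 0.80 at 1.7 uM, 0.66 with RA+F and 0.69 in DMSO, which is the order of Tgif1, and the GAPDH control by values between -0.16 and -0.11. The part of these markers and controls in the differences of Tgif1, Tgif2 and Pmepa1 was not tested.

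Pmepa1, the membrane inhibitor, had log2 values of 7.65 at 5 uM, 7.66 at 1.7 uM, 10.02 with RA+F and 6.76 in DMSO. All 3 treatments lay above DMSO, RA+F far above the others. It was 9.62-fold higher with RA+F (log2 difference 3.27), rank 11 from the highest of 8535 genes. With KHS101 the folds over DMSO were 1.85 at 5 uM and 1.88 at 1.7 uM, short of the 2-fold threshold, and the concentrations differed by -0.02 in log2.

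Skil, which encodes SnoN, had log2 values of 9.98 at 5 uM, 9.91 at 1.7 uM, 10.47 with RA+F and 9.76 in DMSO. The RA+F array was the highest, by a log2 difference of 0.72 (1.65-fold) over DMSO, and was not called. The KHS101 arrays were within 0.22 and 0.16 of DMSO, and 65.5% and 66.3% of measured genes differed from DMSO by at least as much.

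Promoter sequences are shown for Tgif2, Pmepa1 and Skil, because these 3 hold the same 8 letters, TGACGTCA, the full cAMP response element that CREB and ATF proteins recognise. The windows are the RefSeq promoters of build GRCr8, from 250 bases before the start to 50 bases after it, printed 5′ to 3′ on the gene's strand with the element in capitals. Tgif2 lies at chr3:165793239-165793538 on the plus strand, Pmepa1 at chr3:182478600-182478899 on the minus strand and Skil at chr2:114203523-114203822 on the minus strand.
Tgif2: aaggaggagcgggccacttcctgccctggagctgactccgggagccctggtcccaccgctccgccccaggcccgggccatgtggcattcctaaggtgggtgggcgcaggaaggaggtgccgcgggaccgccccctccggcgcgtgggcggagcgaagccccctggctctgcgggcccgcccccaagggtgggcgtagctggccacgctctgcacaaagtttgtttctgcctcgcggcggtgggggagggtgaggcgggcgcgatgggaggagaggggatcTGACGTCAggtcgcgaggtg
Pmepa1: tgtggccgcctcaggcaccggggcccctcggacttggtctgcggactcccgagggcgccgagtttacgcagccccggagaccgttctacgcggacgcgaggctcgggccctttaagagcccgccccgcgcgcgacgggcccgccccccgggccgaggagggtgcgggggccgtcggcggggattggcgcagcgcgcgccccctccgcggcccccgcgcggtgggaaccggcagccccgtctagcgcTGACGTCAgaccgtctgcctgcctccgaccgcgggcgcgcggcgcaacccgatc
Skil: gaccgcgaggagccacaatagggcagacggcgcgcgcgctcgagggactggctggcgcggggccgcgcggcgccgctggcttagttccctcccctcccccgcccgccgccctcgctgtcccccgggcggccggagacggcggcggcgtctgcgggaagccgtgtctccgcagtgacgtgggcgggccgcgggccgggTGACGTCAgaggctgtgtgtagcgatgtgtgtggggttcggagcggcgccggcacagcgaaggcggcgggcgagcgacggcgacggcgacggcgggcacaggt

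The element spans bases 31 to 38 after the start in Tgif2, bases -4 to 4 in Pmepa1 and bases -53 to -46 in Skil. It reads the same on both strands. Of the 9 measured members 8 had a promoter sequence, Tgif1 being the exception. The element was in 3 of these 8, against 1.91% of 27457 RefSeq promoters of the same length. The letters were chosen after the members' promoters were read, so the 3 of 8 describes these sequences and does not measure an enrichment. The SMAD-binding letters CAGAC, searched on both strands, matched 3 times in Pmepa1 and 2 times in Skil, and in none of the other promoters of the members. Of all promoters, 50% held CAGAC. One of the Pmepa1 matches, at base 3 after the start, overlaps the cAMP element. The palindromic SMAD element GTCTAGAC and the retinoid half-site AGGTCA matched in 0 of the 8, against 0.215% and 15.7% of all promoters. The E2F letters TTTCGCGC, TTTGGCGC and TTTCCCGC also matched in 0 of the 8, against 1.82% for any of them. The TGIF core TGTCA was found in Smad4 and Tgfb2 and in 45.9% of all promoters. A match describes letters and not a bound site.

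Genes with the full cAMP element were called with RA+F about as often as genes in general. In that comparison 8 of 268 measured genes with the element (2.99%) were at least 2-fold higher and 9 (3.36%) at least 2-fold lower, against 4.11% and 3.1% of the 7258 measured genes that had a promoter in the table. Their median log2 difference was -0.08, against -0.03 for those 7258 genes. Pmepa1 was among the higher genes and Tgif2 among the lower ones, while Skil was not called. Retinoic acid and forskolin were given together on 1 array, so their parts cannot be told apart. The part of the element in these differences was not tested.

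Among the member SMADs, Smad2, Smad3 and Smad4, none was called against DMSO. Smad2 had log2 values of 10.26 at 5 uM, 10.03 at 1.7 uM, 9.74 with RA+F and 10.23 in DMSO, lowest with RA+F by a difference of -0.49. Smad3, its partner receptor-regulated SMAD, had 8.87 at 5 uM, 9.16 at 1.7 uM, 8.82 with RA+F and 8.60 in DMSO, highest at the lower KHS101 concentration. Smad4, the common partner, had 10.64 at 5 uM, 10.46 at 1.7 uM, 10.10 with RA+F and 10.05 in DMSO and differed from DMSO by 0.60 at 5 uM and 0.41 at 1.7 uM. Its other probe set differed by 0.23 at 5 uM and 0.15 at 1.7 uM. The size of the Smad4 difference thus varied between probe sets of the same gene. The other Smad3 probe set was under the floor on all 4 arrays.

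Tgfbr1, the type I receptor kinase, had log2 values of 10.59 at 5 uM, 10.68 at 1.7 uM, 10.53 with RA+F and 10.46 in DMSO, a range of 0.22 over the 4 arrays that 89.7% of 8646 genes equalled or exceeded. Its other probe set, which lay near the floor at 5.72 at 5 uM, 6.16 at 1.7 uM, 5.51 with RA+F and 6.14 in DMSO, differed from DMSO by -0.42 at 5 uM and -0.63 with RA+F, so a direction for Tgfbr1 depended on the probe set. Tgfb2, a secreted ligand, had 10.70 at 5 uM, 10.48 at 1.7 uM, 9.54 with RA+F and 9.70 in DMSO. It was higher on both KHS101 arrays than on the others. Against DMSO the log2 difference was 0.997 at 5 uM, just under the threshold, 0.78 at 1.7 uM and -0.16 with RA+F, and none was called. The other Tgfb2 probe set gave 1.07 at 5 uM, 0.71 at 1.7 uM and -0.23 with RA+F, so it passed the threshold at 5 uM.

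**Figure D2:**
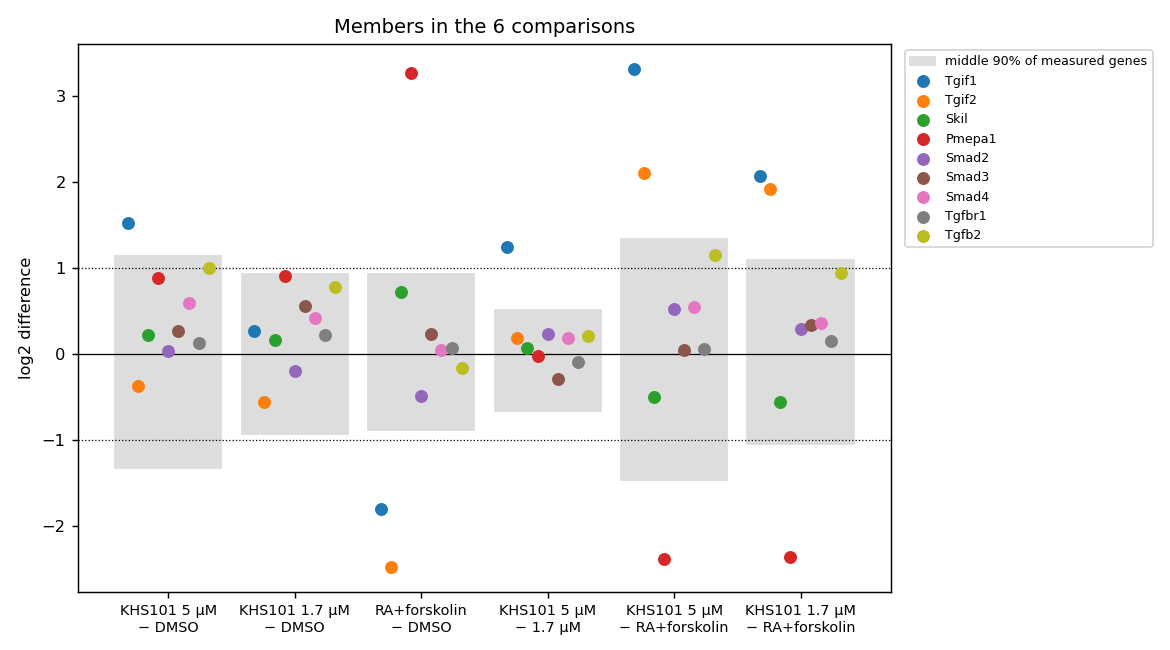
Log2 difference (vertical axis) of the 9 members in each of 6 comparisons, 1 point for each member. Grey boxes span the middle 90% of all measured genes and dotted lines mark 2-fold. Tgif1, by whose values the members were chosen, and Pmepa1 lie outside the box on opposite sides in both comparisons of KHS101 with RA+F, at 3.31 and -2.38 for 5 uM.

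KHS101 was also set directly against RA+F. At 5 uM 3 members were higher (Tgif1, Tgif2 and Tgfb2) and 1 was lower (Pmepa1), where 19.2% of 8606 genes were called, 8.94% higher and 10.2% lower. At 1.7 uM 2 were higher (Tgif1 and Tgif2) and 1 lower (Pmepa1), where 11.3% of 8588 genes were called, 5.93% higher and 5.39% lower. Tgif1, which enters these counts through the choice of members, was 9.95-fold higher at 5 uM and 4.19-fold at 1.7 uM. Tgif2 was 4.29-fold higher at 5 uM and 3.78-fold at 1.7 uM. Pmepa1 was 5.20-fold and 5.13-fold lower at 5 and 1.7 uM. Tgfb2 was 2.23-fold higher at 5 uM, and its fold of 1.92 at 1.7 uM was not called. Tgif2 and Pmepa1 thus stood on opposite sides at both concentrations, and Smad2, Smad3, Smad4, Tgfbr1 and Skil differed by log2 differences of at most 0.56 in size.

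Other genes of the pathway were counted in 7 lists, which also hold the members. Of 17 ligand symbols, 11 had a probe set and 4 were measured. Gdf15, a divergent ligand of the family known as a stress-induced hormone, was above the floor on the array of KHS101 at 5 uM alone, at log2 = 7.21, and at least 4.62-fold higher there than in DMSO. Tgfb3 had 5.78 at 5 uM, 6.68 at 1.7 uM, 7.23 with RA+F and 7.26 in DMSO and was 2.78-fold lower at 5 uM. So at 5 uM Tgfb2 and Tgfb3 lay on opposite sides of DMSO. Gdf11, known in the mouse for inhibiting olfactory neurogenesis, was within 0.49 of DMSO on every array.

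Bambi, a pseudoreceptor that blocks TGF-beta and BMP receptors, was the receptor gene higher with all 3 treatments. Its log2 values were 10.20 at 5 uM, 9.94 at 1.7 uM, 10.34 with RA+F and 8.85 in DMSO, with folds over DMSO of 2.55 at 5 uM, 2.13 at 1.7 uM and 2.82 with RA+F. All 3 treated arrays were above DMSO by more than the spread among themselves, and with arrays centred on the reference genes the difference at 1.7 uM was 0.93 and not called. Acvr2b, a type II activin receptor, was 2.34-fold lower with RA+F, at log2 = 5.69 against 6.92 in DMSO. With the floor at log2 = 6 its difference was -0.92 and no longer called. Acvr2a was not called with any treatment. Of 15 receptor and co-receptor symbols 10 had a probe set, Tgfbr2 and Acvr1b not among them, and 4 were measured.

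Of 21 genes for proteins that store or activate the ligand outside the cell, 19 had a probe set with their symbol and 7 were measured. Emilin1, which in the mouse restrains processing of the TGF-beta precursor, had log2 values of 7.89 at 5 uM, 8.80 at 1.7 uM, 8.85 with RA+F and 9.98 in DMSO. It was lower on all 3 treated arrays, 4.25-fold at 5 uM, 2.26-fold at 1.7 uM and 2.19-fold with RA+F, the last at -0.98 and not called with arrays centred on the reference genes. Itgav, the integrin subunit that releases latent TGF-beta, was 2.14-fold lower at 5 uM and was not called with the others. Fbn1, a microfibril protein that binds latent complexes, was 2.28-fold higher at 1.7 uM, at log2 = 6.82 against 5.63 in DMSO. Its difference was 0.82 with the floor at log2 = 6 and 0.43 with the mean of its probe sets, and it was called under neither.

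In the list of SMADs and SMAD anchors, 14 of 16 genes were measured, and none was called with KHS101 at either concentration. Over all genes 14.3% were called at 5 uM and 8.63% at 1.7 uM. With RA+F 1 of the list was higher and 1 lower, against 4.34% and 3.15% of all genes. Smad9, a SMAD of the BMP branch, had 7.37 at 5 uM, 6.86 at 1.7 uM, 5.75 with RA+F and 7.28 in DMSO and was 2.90-fold lower with RA+F. Its other probe set was under the floor on all 4 arrays, and with the mean of both the gene lay at the floor. Zfyve16, an endosomal protein that binds SMADs, was 2.15-fold higher. The median difference of the list was 0.19 at 5 uM, 0.09 at 1.7 uM and -0.18 with RA+F, against 0.00, -0.01 and -0.03 over all genes.

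The ubiquitin pathway of SMADs and receptors had 15 of 17 genes measured, and 1 was called at 5 uM, 0 at 1.7 uM and 1 with RA+F, against 14.3%, 8.63% and 7.49% of all genes. Smurf1, a ligase that marks SMADs and receptors for degradation, had 10.07 at 5 uM, 9.72 at 1.7 uM, 8.81 with RA+F and 8.73 in DMSO. It was 2.53-fold higher at 5 uM. At 1.7 uM the fold was 1.99, just short of the threshold, and with RA+F it was 1.06. The gene called with RA+F was Pmepa1. Rnf111, the ligase known for degrading SnoN, was within 0.46 of DMSO with every treatment.

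Of the 32 nuclear corepressors and coactivators of SMADs, 27 had a probe set with their symbol and 25 were measured. At 5 uM 1 was higher and 1 lower, at 1.7 uM none was called, and with RA+F 0 were higher and 2 lower, both of them TGIF genes. Over all genes 6.16% were higher and 8.1% lower at 5 uM, 4.36% and 4.27% at 1.7 uM, and 4.34% and 3.15% with RA+F. Tgif1 enters the list counts through the choice of members. Sin3a, a scaffold of histone deacetylase complexes, had 7.32 at 5 uM, 7.78 at 1.7 uM, 8.27 with RA+F and 8.74 in DMSO and was 2.68-fold lower at 5 uM. Its other probe sets differed by -0.71 and -0.59 there, and with the mean of all its probe sets the difference was -0.93 and not called. The median difference of the list was 0.00 at 5 uM, 0.08 at 1.7 uM and 0.05 with RA+F. The deacetylases and CtBP proteins that TGIF recruits were not called: Hdac1 differed by -0.83 at 5 uM, and Hdac2, Hdac3, Ctbp1 and Ctbp2 by at most 0.18 in size with any treatment.

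**Figure D3:**
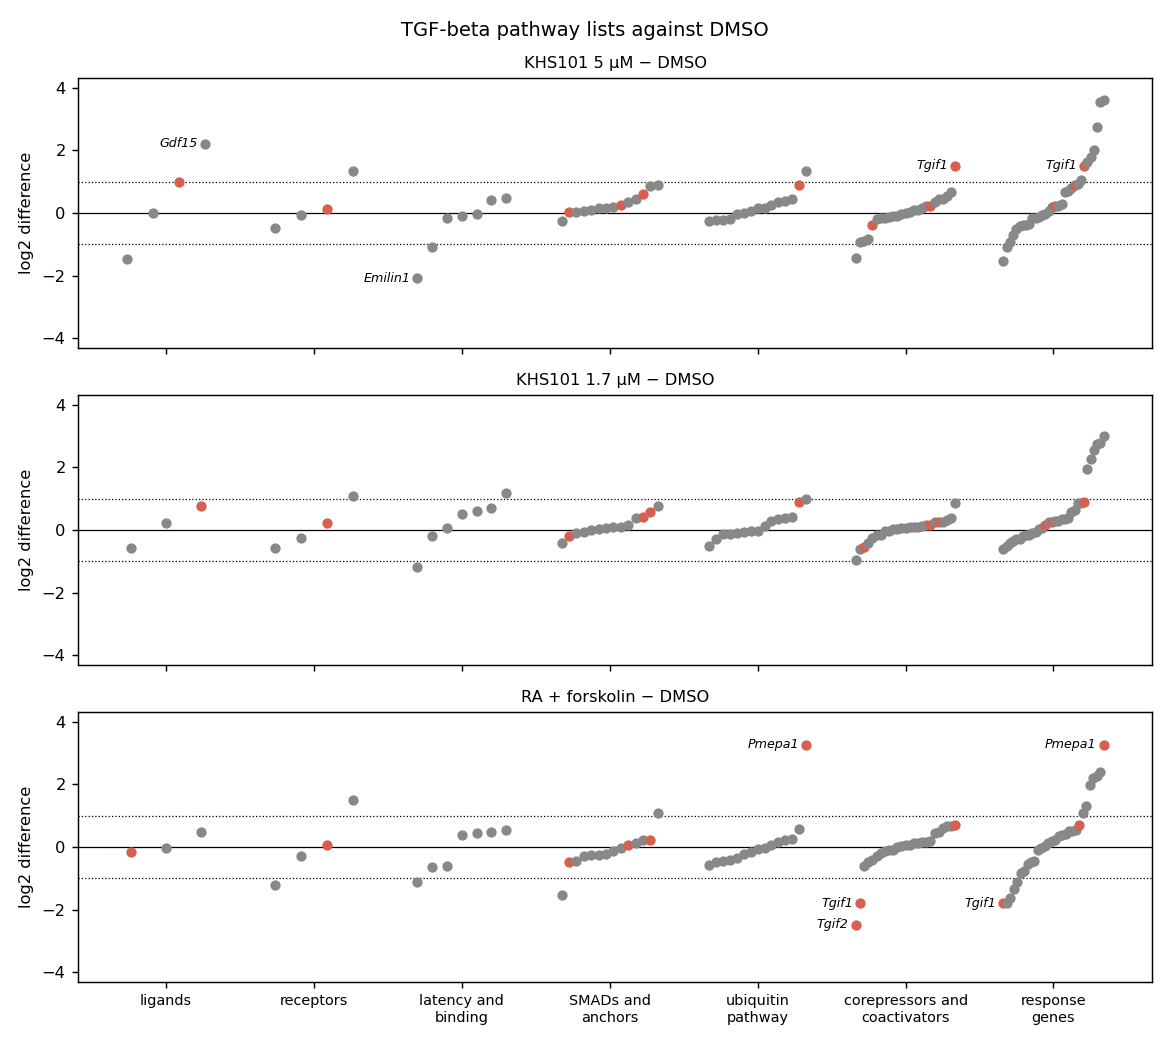
Log2 difference from DMSO (vertical axis) of the measured genes in 7 pathway lists, sorted within each list, 1 panel for each treatment. Members are in red and other genes in grey, and dotted lines mark 2-fold. The TGIF genes are the lowest points of the corepressor list with RA+F, at -1.80 and -2.47.

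Among genes known to respond to TGF-beta, listed by 56 symbols, Vegfa, Cdkn1a and Timp3 had the largest differences from DMSO with KHS101 at 5 uM. In that comparison 8 of 32 measured were higher and 2 lower, where 6.16% and 8.1% of all genes were. At 1.7 uM 6 of 32 were higher and 0 lower, where 4.36% and 4.27% were. With RA+F 7 of 30 were higher and 5 lower, where 4.34% and 3.15% were. The median differences were 0.22 at 5 uM, 0.28 at 1.7 uM and 0.20 with RA+F, against 0.00, -0.01 and -0.03 over all genes. The list includes Tgif1, Skil and Pmepa1, and Tgif1 enters its counts through the choice of members. The list was drawn up with earlier results of these data known, so its counts do not measure an enrichment. It was not split by whether TGF-beta raises or lowers a gene, so its counts and medians give no direction of a response. The 2 lower at 5 uM were Myl9 (-1.53) and Itgav (-1.10). Those lower with RA+F were Tgif1, Id3 (-1.79), Myc (-1.64), Id2 (-1.35) and Vim (-1.11), while Myl9 was higher there (2.19). Myl9 at 5 uM was not called with the floor at log2 = 6 (-0.77), nor was Vim with arrays centred on the reference genes (-0.96). With the floor at log2 = 6, Bhlhe40 (0.62) and Postn (0.80) at 5 uM and Tnc (0.96) at 1.7 uM were no longer called higher. Nor were Postn (0.99), Cdkn2b (0.94) and Spsb1 (0.32) with RA+F. Spsb1 also lost its call with the mean of its probe sets, and Cdkn2b with quantile normalization (0.98). Tgfbi at 5 uM was at 0.79 and not called with arrays centred on the reference genes.

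Several of these response genes are also targets of other pathways. Vegfa, an angiogenic factor that hypoxia also induces, was 12.4-fold higher at 5 uM, 6.67-fold higher at 1.7 uM and at -0.78 in log2, not called, with RA+F. Cdkn1a, the p21 inhibitor that p53 also induces, was 11.6-fold and 7.99-fold higher with KHS101 at 5 and 1.7 uM, and its difference of 0.36 with RA+F was not called. Timp3, an inhibitor of matrix proteases, had log2 values of 11.80 at 5 uM, 11.61 at 1.7 uM, 11.33 with RA+F and 9.06 in DMSO, and was 6.69-fold higher at 5 uM, 5.86-fold at 1.7 uM and 4.84-fold with RA+F. It was thus high on all treated arrays. Postn, a matrix protein, lay under the floor in DMSO and was higher by at least 3.48-fold at 5 uM, 6.86-fold at 1.7 uM and 3.96-fold with RA+F. With the floor at log2 = 6 its differences at 5 uM and with RA+F, 0.80 and 0.99, were not called. Col5a1, a collagen chain, was 4.77-fold higher at 1.7 uM and 5.32-fold with RA+F, and its difference of 0.79 at 5 uM was not called. Its other probe set gave smaller log2 differences, 1.43 against 2.25 at 1.7 uM and 1.53 against 2.41 with RA+F. Smad7, the inhibitory SMAD that TGF-beta induces, lay close to the floor, with values between 5.00 and 5.40, and was not called. Of the 7 fibroblast markers Postn was the single one above the floor on any array.

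The genes most like 4 of the members were taken as those with the smallest Euclidean distance over the 3 log2 differences from DMSO, among 8216 genes above the floor on all 4 arrays. For Tgif1 they were Morc4 (distance 0.64), LOC102547700 (0.67), Fpgs (0.68), Gpatch4 (0.75) and LOC100909675 (0.76). Morc4 differed from DMSO by 0.92 at 5 uM, 0.50 at 1.7 uM and -1.84 with RA+F. For Tgif2 they were Pop1 (0.47), Coro1a (0.61), Sdc1 (0.69), Id3 (0.74) and Camkk2 (0.82). Neither TGIF gene was among the 5 nearest to the other.

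For Pmepa1 the nearest gene was Nrbp2 at a distance of 0.15, with log2 values of 8.70 at 5 uM, 8.92 at 1.7 uM, 11.17 with RA+F and 7.91 in DMSO. It was followed by Septin4 (0.76), Ak4 (0.91), Slc15a2 (0.92) and Fzd8 (0.93). Around Skil, whose differences were small, the distances were shorter, 0.07 for Usp30 and Lats2 and 0.08 for Cd164, Ehbp1 and Trim5. All of these comparisons share the DMSO array and 3 points for each gene.

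**Figure D4:**
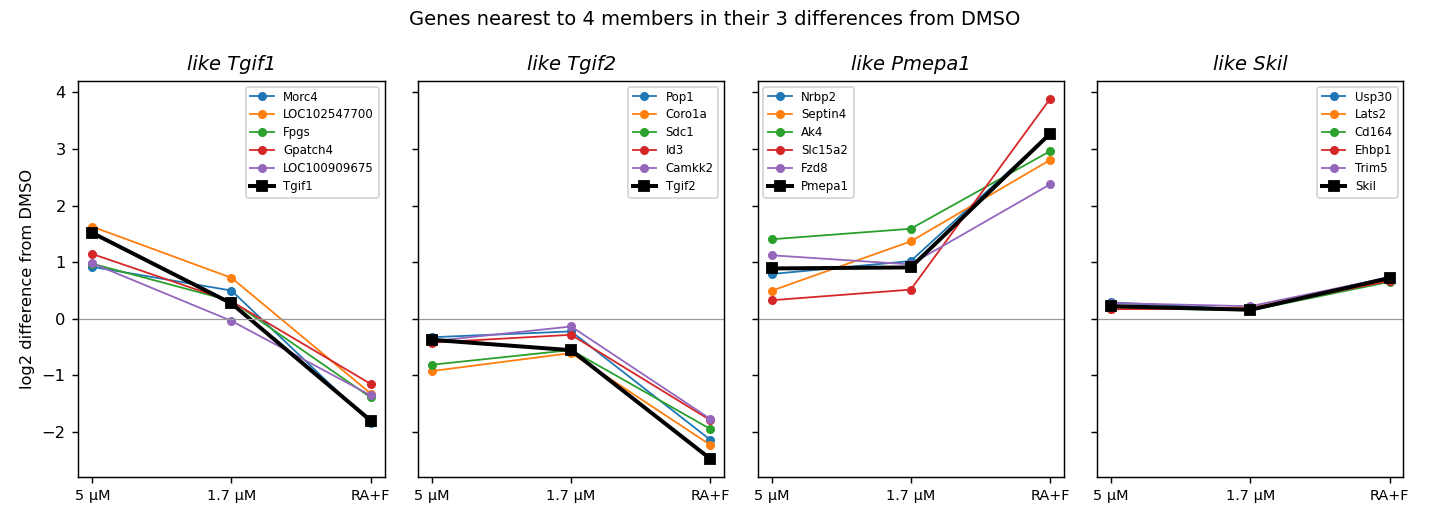
Log2 difference from DMSO (vertical axis) with KHS101 at 5 uM, KHS101 at 1.7 uM and RA+F, for Tgif1, Tgif2, Pmepa1 and Skil (black squares) and the 5 genes nearest to each (coloured points). The lines join the 3 differences of a gene. Nrbp2 follows Pmepa1 within a distance of 0.15.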

How the data were processed

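RNA of 4 treatment groups was measured on 1 Affymetrix rat array each. The authors deposited log2 expression for 31099 probe sets, and GCRMA and R 2.6.2 are named, per the submitters' processing notes, without saying what each did. The log2 scale was read from the values, and no genome build is given. GCRMA gives low values to probe sets without specific signal, so a floor of log2 = 5 was set and a gene counted as measured with at least 1 of the 2 arrays above it. Among probe sets that are not controls, 20826 had 1 symbol, 436 had several and 9780 had none in the annotation used; only the first entered. Differences of floored log2 values were called at 2-fold, and no p-value was computed. On simulated arrays the calling recovered shifts put in above the threshold, for genes well above the floor and with little noise. This checked the calculation and says nothing on how reliable calls from single arrays are. The members and lists were chosen with earlier results of these data known, and the promoter letters after the sequences were read. Besides the members, up to 6 genes of each list are named, those furthest from DMSO with any treatment, with all measured ligands and receptors, and the 5 nearest in pattern to 4 members. Smad7, Rnf111, Hdac1, Hdac2, Hdac3, Ctbp1 and Ctbp2 were named outside this rule, after their values were seen. The response genes Myl9, Myc, Id2, Id3, Vim, Bhlhe40, Tnc, Tgfbi, Cdkn2b and Spsb1 were named in the same way. Alternatives varied the floor, the probe set, the scaling and the fold threshold. Calculations used Python 3.11.15, pandas 2.3.3 and numpy 2.4.6.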

Additional observations from a re-analysis of the deposited data

How the results depend on the processing

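No paired analysis was possible because each group is 1 array, and for the same reason no array could be left out. Of 54 member differences, 12 were called, and under 10 alternatives all 120 values of these 12 kept their sign. Tgif1 with RA+F fell short of 2-fold with the floor at log2 = 6 (-0.98), because the floor then lies above its value, and Tgfb2 at 5 uM against RA+F did with arrays centred on the reference genes (0.75). Of the uncalled differences 12 changed sign under an alternative, all within 0.30 of zero as deposited. The number of members called against DMSO at 5 uM was 2 with the mean of all probe sets, with the probe set of highest spread and with quantile normalization, in each case through Tgfb2. At a 3-fold threshold it was 0, as it was between the KHS101 concentrations, and at 1.5-fold it was 4 at 5 uM and 2 at 1.7 uM. Over all genes, calls against DMSO numbered 518, 214 and 168 at 3-fold and 2621, 1799 and 2006 at 1.5-fold for 5 uM, 1.7 uM and RA+F. Between the KHS101 concentrations they numbered 29 and 841, and against RA+F 664 and 3333 at 5 uM and 320 and 2313 at 1.7 uM. Centring on the median of 8 reference genes moved the median of all genes to -0.41 at 5 uM and -0.30 at 1.7 uM against RA+F, -0.26, -0.17 and 0.12 against DMSO for 5 uM, 1.7 uM and RA+F, and -0.11 between concentrations. The share of calls that were higher was then 19.1%, 25.5%, 25.1%, 35.4%, 76% and 19.7%, against 46.6%, 52.4%, 43.2%, 50.5%, 57.9% and 31.9% as deposited. Centring on the median deviation of those genes, chosen after seeing the data, gave medians between -0.09 and 0.05. Of 480 counts of listed genes 85 moved, by over 1.5 times or to or from 0, 54 of them with the fold threshold. The number of arrays, 1 in each group, limits every value. Signals near the floor limit Tgif1 and Tgif2 on the RA+F array and Acvr2b, Fbn1, Postn, Myl9, Bhlhe40, Tnc, Cdkn2b and Spsb1.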

Other observations

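TGIF1 and TGIF2 belong to the TALE class of homeodomain proteins, with the MEIS, PBX, PKNOX and IRX proteins, and 12 of 18 listed genes of the class were measured. Irx3, an Iroquois patterning gene, differed most. Its log2 values were 9.57 with KHS101 at 5 uM, 8.80 at 1.7 uM, 6.98 with RA+F and 6.58 in DMSO, so both KHS101 arrays stood above the others. It was 7.95-fold higher at 5 uM and 4.64-fold at 1.7 uM. Another probe set, above the floor on all 4 arrays, gave smaller log2 differences, 1.70 against 2.99 at 5 uM and 1.46 against 2.21 at 1.7 uM. With the mean of the Irx3 probe sets, 1 of which was under the floor on all arrays, the difference at 1.7 uM was 0.95 and not called. The Irx3 difference of 0.40 with RA+F was not called. Irx1 and Irx2 differed from DMSO by at most 0.42 in size with any treatment. With RA+F the TGIF genes were the 2 called members of the class, against 3.15% of all genes called lower. Tgif1 enters this count through the choice of members, and its difference was -0.98 and not called with the floor at log2 = 6. Pknox1 differed by -0.78 at 5 uM, -0.76 at 1.7 uM and -0.55 with RA+F, Meis1 by -0.69 and Pknox2 by -0.52 at 5 uM, and none of these was called. Irx1 and Irx2 were named after their values were seen.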
